A study of Danio rerio with 12 samples.

Results

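The genes described here are 40 neuronal differentiation and synapse genes, out of 25902 genes in the count table. They were found by matching 39 zebrafish gene names to the names attached to the Ensembl genes of the table, with case ignored and the letter of a paralog optional where the names drop it. In all, 37 of the 39 names matched, and 20 of the 40 genes matched only once the paralog letter was dropped, so 7 names (STMN1, STMN2, SNAP25, GAD1, SLC17A6, INA and ISL2) stand for 2 genes each, which are told apart by their Ensembl identifiers. Which paralog each of these is was not resolved, and some may be copies that the list of names did not mean. The names sypa and dcx had no match and were not analysed here.

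A neuron that leaves the cell cycle first makes neuronal RNA-binding proteins of the ELAVL family, then builds an axon from microtubules and neurofilaments, and finally assembles synaptic vesicles that release a transmitter. The transmitter is set by the enzyme that makes it and by the transporter that loads it into vesicles. In the zebrafish embryo, motor neurons, interneurons and sensory neurons of the first locomotor circuits have already extended axons at the stage sampled here, and LIM-homeodomain factors such as Isl1 and Isl2 mark motor and sensory neurons among them.

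RNA-seq libraries were made from whole embryos at 48 h post-fertilization (hpf), with 3 libraries in each of 4 groups: apc-mcr mutants given 100 nM rapamycin, WT given rapamycin, apc-mcr mutants given vehicle, and WT given vehicle. The mutants were homozygotes, picked by their bent body axis at 24 hpf, and the WT group pooled wild-type embryos with heterozygotes, which look alike. Apc is a scaffold of the complex that degrades beta-catenin and restrains Wnt signalling, and rapamycin, an inhibitor of mTORC1, was given from 24 hpf. The vehicle was 0.1% DMSO, and the clutches were 3 in number. The labels give 20 embryos for each replicate whereas the methods give that number for each genotype, so the number in a library is uncertain. Levels are given as CPM, the counts of a gene per 1000000 counts of its library after TMM scaling in edgeR, and a fold change is a log2 ratio of mutant over WT, or of rapamycin over vehicle. A gene passed the test at an edgeR adjusted p under 0.05 over all genes tested, and only such genes are said to have risen or fallen. In whole embryos, fewer cells of a type and less RNA per cell cannot be told apart.

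Total counts per library ran from 73243315 to 82364863 in mutants given rapamycin, from 51692772 to 79553529 in WT given rapamycin, from 69693340 to 77584080 in mutants given vehicle, and from 74395349 to 77680617 in WT given vehicle. The mutated gene itself, apc, was at 95.1, 77.2 and 76.8 CPM in mutants given rapamycin, against 132, 137 and 63.9 CPM in WT given rapamycin. It was at 96.7, 102 and 73.2 CPM in mutants given vehicle, against 127, 127 and 128 CPM in WT given vehicle. Apc RNA fell in mutants given vehicle (log2 fold change −0.49, SE 0.12, edgeR adjusted p = 0.0153) and did not pass the test in rapamycin (log2 fold change −0.42, SE 0.24, edgeR adjusted p = 0.264), where the third WT library was the lowest of all 12. Without that library the rapamycin value was −0.68 (edgeR adjusted p = 0.00313). The third WT library given rapamycin stood apart for the neuronal genes too: 17 of the 40 were lower there than in all 5 other WT libraries and 12 were higher. These positions were not counted over all genes, so they do not set the neuronal genes apart from the rest. That library was widely spread over all genes. The interquartile range of their log2 ratios to the mean of WT given vehicle was 0.95 there. It was 0.14 to 0.35 in the 5 other WT libraries. The second WT library given rapamycin had the lowest total, and 1 gene, ENSDARG00000089382, took 12.9% of its counts. The counts of genes that fell in rapamycin are given with and without these libraries. For single genes the value without them is given only in some cases.

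Neuronal genes were lower in mutants than in WT larvae given vehicle. Of the 40 genes, 30 fell and 0 rose, whereas 13.6% of all 22335 genes tested fell and 14.8% rose. At an unadjusted p under 0.05 the number was 33, beside 39.3% of all genes. DESeq2 called 32 of the 40 lower and 1 higher (14.7% lower and 15.9% higher over all genes), and so did edgeR with the replicate number as a block (18.2% lower and 18.3% higher). The fold change was below 0 for 39 of the 40 (50.4% of all genes) and above 0 for 1 (49.6%). The median log2 fold change of the 40 was −0.53, a level 30.9% lower, beside a median of −0.0043 over all genes tested. The decreases were moderate, from 19.4% to 44.0% among the genes that fell, and 0 of the 40 reached a 2-fold change, which 3.9% of all genes passed in the lower direction and 4.05% in the higher. For 32 of the 40 the 3 mutant libraries lay below all 3 WT libraries, a pattern found in 21.7% of all genes. Relative to the mean of WT given vehicle, the median of the 40 genes was −0.47, −0.47 and −0.59 on the log2 scale in the mutant libraries and 0.02, −0.0021 and −0.0036 in the WT libraries.

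**Figure D1:**
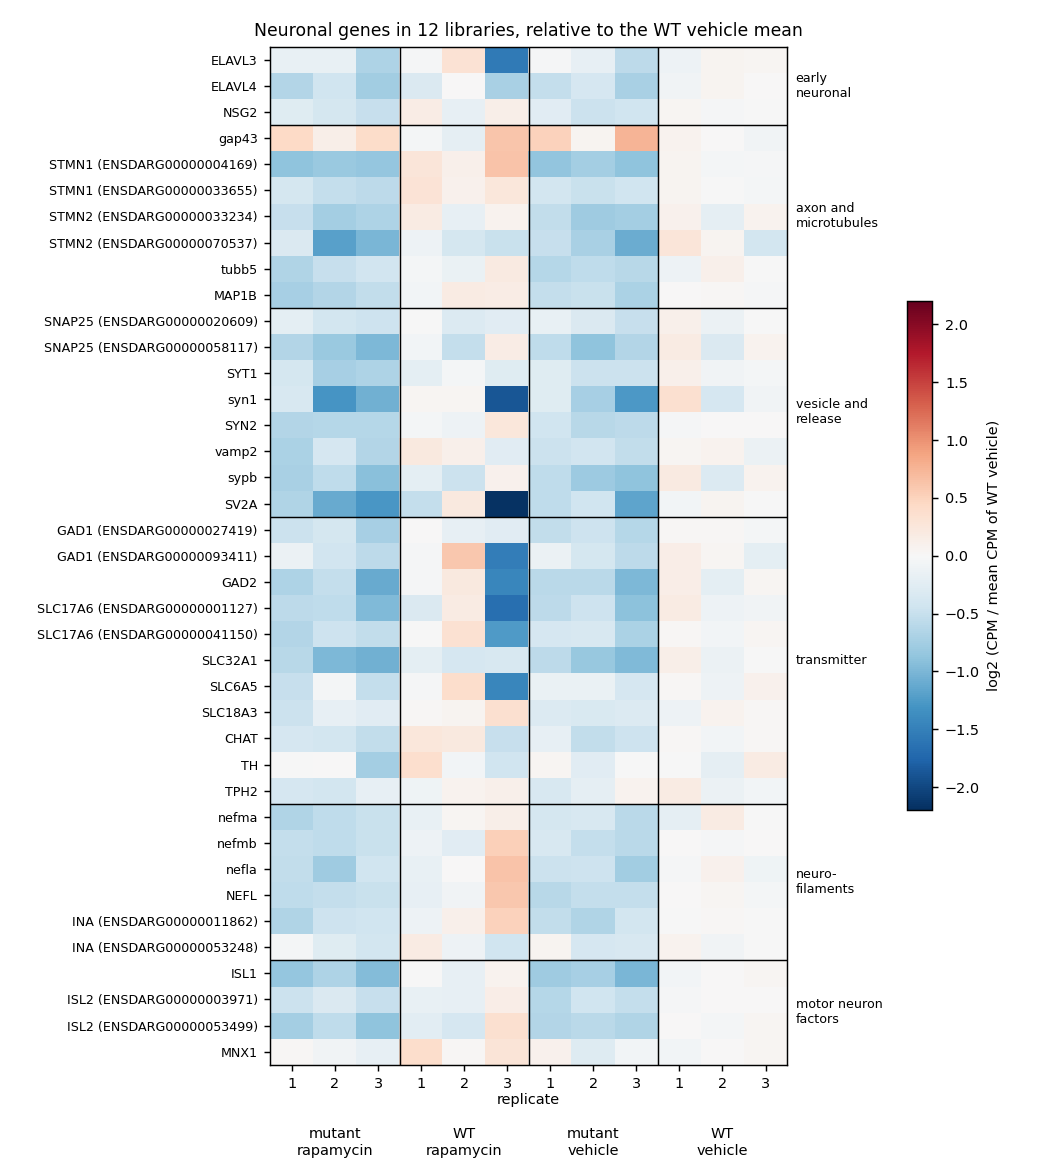
Level of 39 of the 40 neuronal genes in 12 libraries, as the log2 ratio of CPM to the mean CPM of WT larvae given vehicle, with genes grouped by role from top to bottom and the replicate number under each column. The mutant columns are mostly blue, with medians over the 40 genes from −0.61 to −0.47, and the third WT library given rapamycin holds the deepest blue cells.

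Among the early neuronal genes, ELAVL4 and NSG2 fell and ELAVL3 did not pass. ELAVL4, the RNA-binding protein HuD, was at 52.3, 58.2 and 45.8 CPM in mutants and 71.2, 79.02 and 75.96 CPM in WT larvae given vehicle. This was a drop of 30.96% (log2 fold change −0.53, SE 0.10, edgeR adjusted p = 0.00436), with no overlap between the groups. NSG2, a neuronal protein of endosomal sorting, was at 59.9, 51.2 and 52.6 CPM in mutants and 72.98, 69.5 and 70.4 CPM in WT, again without overlap (log2 fold change −0.38, SE 0.09, edgeR adjusted p = 0.0105). ELAVL3, the HuC protein whose promoter is widely used to label zebrafish neurons, was at 87.8, 78.8 and 59.9 CPM in mutants and 82.4, 92.9 and 91.5 CPM in WT. Its groups overlapped because the first mutant library reached the WT level, and its change of −0.24 (SE 0.13, edgeR adjusted p = 0.223) did not pass.

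Genes of axon growth and microtubules fell, with gap43 as the exception. The stathmins destabilize microtubules, and all 4 stathmin genes of the set fell. A stathmin gene outside the set, STMN4 (ENSDARG00000030106), rose (log2 fold change 0.44, edgeR adjusted p = 0.0246). STMN1 (ENSDARG00000004169) was at 95.4, 103 and 93.5 CPM in mutants, against 179.7, 169 and 171 CPM in WT larvae. Its drop of 43.9% (log2 fold change −0.83, SE 0.08, edgeR adjusted p = 0.000115) was among the strongest of the 40. The other STMN1 gene, ENSDARG00000033655, was at 149, 139 and 145 CPM in mutants against 203, 194 and 189.9 CPM in WT (log2 fold change −0.44, SE 0.08, edgeR adjusted p = 0.00275). STMN2 (ENSDARG00000033234), whose product is found in growth cones, was at 45.2, 38.5 and 39.5 CPM in mutants and 70.6, 57.9 and 69.8 CPM in WT (log2 fold change −0.69, SE 0.11, edgeR adjusted p = 0.00164). None of these 3 genes overlapped between the groups. STMN2 (ENSDARG00000070537) was more scattered, at 10.6, 9.298 and 7.09 CPM in mutants and 18.2, 15.8 and 11.5 CPM in WT (log2 fold change −0.75, SE 0.19, edgeR adjusted p = 0.0183).

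The beta-tubulin tubb5 was at 413, 432 and 415 CPM in mutants and 587, 689 and 633 CPM in WT larvae given vehicle (log2 fold change −0.60, SE 0.08, edgeR adjusted p = 0.000973). MAP1B, which stabilizes microtubules in growing axons, was at 23.5, 23.9 and 20.9 CPM in mutants against 33.9, 34.5 and 33.2 CPM in WT (log2 fold change −0.57, SE 0.08, edgeR adjusted p = 0.00125). In both cases the lowest WT library was well above the highest mutant library. The growth cone protein gap43 went the other way in value, at 224, 164 and 266 CPM in mutants and 166, 159 and 149 CPM in WT, so that 2 mutant libraries exceeded all WT libraries and the second did not. Its change of 0.47 (SE 0.16, edgeR adjusted p = 0.0544) did not pass, but it did with the replicate number as a block (0.44, edgeR adjusted p = 0.0239) and without the second mutant library (0.63). It was the only one of the 40 with a fold change above 0 in vehicle.

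Genes of the synaptic vesicle and its release all had fold changes below 0, and 7 of 9 passed, beside 13.6% of all genes that fell. SYN2, a synapsin that tethers vesicles, was at 30.8, 27.7 and 28.1 CPM in mutants and 41.3, 42.5 and 42.1 CPM in WT (log2 fold change −0.54, SE 0.08, edgeR adjusted p = 0.0012). Its spread was small, with each mutant library below each WT library by a wide margin. The vesicle membrane protein synaptophysin, encoded by sypb, was at 26.1, 22.3 and 21.01 CPM in mutants and 44.2, 31.3 and 40.7 CPM in WT (log2 fold change −0.74, SE 0.14, edgeR adjusted p = 0.00457). SV2A, another vesicle membrane protein, was at 7.07, 7.73 and 4.66 CPM in mutants and 9.99, 10.96 and 10.5 CPM in WT (log2 fold change −0.69, SE 0.17, edgeR adjusted p = 0.0172). The third mutant library was the lowest for both of these genes.

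The SNARE protein vamp2, on the vesicle, was at 7.86, 8.16 and 7.51 CPM in mutants and 11.2, 11.6 and 9.97 CPM in WT (log2 fold change −0.48, SE 0.10, edgeR adjusted p = 0.00856). SYT1, the calcium sensor of release, was at 21.4, 18.6 and 18.4 CPM in mutants and 27.7, 24.3 and 24.9 CPM in WT (log2 fold change −0.40, SE 0.10, edgeR adjusted p = 0.0144). Neither gene overlapped between the groups. The 2 genes named SNAP25, for the SNARE on the plasma membrane, fell on either side of the threshold. ENSDARG00000058117 was at 22.4, 17.99 and 21.1 CPM in mutants and 37.7, 26.7 and 35.1 CPM in WT (log2 fold change −0.69, SE 0.14, edgeR adjusted p = 0.0068), whereas ENSDARG00000020609 was at 66.9, 60.3 and 52.8 CPM in mutants and 81.1, 68.7 and 74.7 CPM in WT, a change of −0.32 (SE 0.11, edgeR adjusted p = 0.0525) that did not pass. It passed with the replicate block (−0.32, edgeR adjusted p = 0.0129) and without the first mutant library (−0.40). The low and scattered syn1, a second synapsin, was at 3.49, 2.52 and 1.75 CPM in mutants and 5.38, 3.27 and 3.98 CPM in WT, with an overlap between the groups. Its change of −0.71 (SE 0.27, edgeR adjusted p = 0.0799) passed with the block (−0.72, edgeR adjusted p = 0.00987) and without the first mutant library (−0.98).

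Of the 11 transmitter genes 7 fell, beside 13.6% of all genes. Among the 7 were genes of GABA, glutamate and acetylcholine neurons. The glycine transporter and the monoaminergic genes of the set, TH and TPH2, did not pass. SLC32A1, the vesicular transporter of GABA and glycine, was at 7.74, 6.503 and 5.899 CPM in mutants and 12.6, 10.6 and 11.5 CPM in WT (log2 fold change −0.79, SE 0.13, edgeR adjusted p = 0.00233). The GABA-synthesizing enzyme gene GAD2 was at 10.9, 10.97 and 8.28 CPM in mutants and 18.1, 14.2 and 17.04 CPM in WT (log2 fold change −0.71, SE 0.14, edgeR adjusted p = 0.00583). For both genes the lowest WT library exceeded the highest mutant library. GAD1 (ENSDARG00000027419) was at 22.01, 23.4 and 20.7 CPM in mutants and 32.6, 32.5 and 30.98 CPM in WT (log2 fold change −0.54, SE 0.08, edgeR adjusted p = 0.00147), and the low-count GAD1 (ENSDARG00000093411) was at 2.07, 1.73 and 1.504 CPM in mutants and 2.49, 2.33 and 1.93 CPM in WT, a change of −0.35 that did not pass (edgeR adjusted p = 0.202). SLC6A5, the transporter by which glycinergic neurons take glycine up, was at 14.5, 14.6 and 12.5 CPM in mutants and 16.3, 14.8 and 17.1 CPM in WT. Its groups did not overlap, but its change of −0.21 (SE 0.10, edgeR adjusted p = 0.158) did not pass.

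SLC17A6 encodes the vesicular glutamate transporter VGLUT2. SLC17A6 (ENSDARG00000001127) was at 5.04, 5.44 and 3.99 CPM in mutants and 8.46, 6.91 and 7.12 CPM in WT (log2 fold change −0.64, SE 0.15, edgeR adjusted p = 0.0126). SLC17A6 (ENSDARG00000041150) was at 9.28, 9.33 and 7.38 CPM in mutants and 12.2, 11.4 and 12.3 CPM in WT (log2 fold change −0.46, SE 0.12, edgeR adjusted p = 0.0173). Both glutamatergic genes therefore fell, without overlap. The cholinergic pair, CHAT, which makes acetylcholine, and SLC18A3, which loads it into vesicles, fell as well. CHAT was at 9.85, 7.67 and 8.14 CPM in mutants and 11.3, 10.7 and 11.4 CPM in WT (log2 fold change −0.38, SE 0.12, edgeR adjusted p = 0.0396), and SLC18A3 was at 20.8, 20.5 and 21.03 CPM in mutants and 23.9, 27.2 and 26.3 CPM in WT (log2 fold change −0.31, SE 0.08, edgeR adjusted p = 0.0228). TH, the rate-limiting enzyme of catecholamine synthesis, was at 3.53, 2.88 and 3.41 CPM in mutants and 3.396, 2.98 and 3.88 CPM in WT, a change of −0.06 (SE 0.16, edgeR adjusted p = 0.813). TPH2, which makes serotonin in neurons, was at 2.78, 3.12 and 3.75 CPM in mutants and 4.003, 3.23 and 3.42 CPM in WT, a change of −0.14 (SE 0.16, edgeR adjusted p = 0.565). TH and TPH2 both overlapped between the groups, at low levels in all 6 libraries. They do not stand for all monoaminergic genes. The serotonin transporter gene SLC6A4, outside the set, fell in the same fit without overlap. It was at 5.16, 6.79 and 4.66 CPM in mutants and 10.2, 9.56 and 11.5 CPM in WT (log2 fold change −0.91, SE 0.15, edgeR adjusted p = 0.00265).

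Of the neurofilament genes, which form the intermediate filaments of axons, 5 of 6 fell, beside 13.6% of all genes. The medium subunits nefma and nefmb were at 29.8, 30.5 and 25.9 CPM and 70.6, 63.3 and 59.9 CPM in mutants. In WT larvae nefma was at 34.1, 44.1 and 38.7 CPM and nefmb at 91.1, 88.8 and 91.5 CPM. The changes were −0.44 (SE 0.11, edgeR adjusted p = 0.0171) for nefma and −0.49 (SE 0.08, edgeR adjusted p = 0.00298) for nefmb, with every mutant library below every WT library. The light subunit NEFL was at 23.8, 25.2 and 25.2 CPM in mutants and 36.5, 37.1 and 34.9 CPM in WT (log2 fold change −0.55, SE 0.08, edgeR adjusted p = 0.000938), and nefla was at 5.06, 5.08 and 4.13 CPM in mutants and 6.89, 7.496 and 6.57 CPM in WT (log2 fold change −0.56, SE 0.13, edgeR adjusted p = 0.0113). Internexin is a related filament protein. INA (ENSDARG00000011862) fell, at 1.98, 1.83 and 2.197 CPM in mutants and 2.88, 2.94 and 2.88 CPM in WT (log2 fold change −0.53, SE 0.15, edgeR adjusted p = 0.0258), while INA (ENSDARG00000053248) was at 32.97, 24.7 and 24.8 CPM in mutants and 33.6, 30.2 and 31.6 CPM in WT, with overlapping groups and a change of −0.21 (SE 0.12, edgeR adjusted p = 0.241). It passed without the first mutant library (−0.36).

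Among motor neuron factors, ISL1 and both ISL2 genes fell and MNX1 did not pass. Isl1 and Isl2 also mark sensory neurons, so their values are not those of motor neurons alone. ISL1 was at 37.7, 39.4 and 32.3 CPM in mutants and 62.3, 65.8 and 67.2 CPM in WT larvae given vehicle. Its drop of 44.04% (log2 fold change −0.84, SE 0.09, edgeR adjusted p = 0.000277) was the largest of the 40 in vehicle. ISL2 (ENSDARG00000053499) was at 16.6, 17.3 and 16.5 CPM in mutants and 26.1, 25.2 and 26.8 CPM in WT (log2 fold change −0.63, SE 0.08, edgeR adjusted p = 0.000552). ISL2 (ENSDARG00000003971) was at 23.9, 27.1 and 25.5 CPM in mutants and 36.3, 37.01 and 36.9 CPM in WT (log2 fold change −0.53, SE 0.08, edgeR adjusted p = 0.0015). The WT libraries of both ISL2 genes were almost level and the mutant libraries lay far below them. MNX1, the motor neuron homeobox factor HB9, was at 7.39, 5.67 and 6.58 CPM in mutants and 6.63, 6.94 and 7.12 CPM in WT. Its mutant libraries lay on both sides of the WT values, with a change of −0.08 (SE 0.13, edgeR adjusted p = 0.71).

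The fall in vehicle was tested again with each library left out. Over these fits 23 to 31 of the 40 passed, beside 7.98% to 14.5% of all genes that fell. In every such fit 20 of the 30 genes passed, and 10 lost the call in at least 1. How often calls of all genes held in every fit was not counted. Without the first mutant library INA (ENSDARG00000011862) and SLC18A3 were lost, with log2 fold changes of −0.53 and −0.31, and without the second, CHAT (−0.31) and INA (ENSDARG00000011862, −0.47). Without the third mutant library the calls of CHAT, STMN2 (ENSDARG00000070537) and nefma were lost, at −0.61 to −0.35. Leaving out a WT library lost 6 calls without the first (CHAT, INA (ENSDARG00000011862), both SLC17A6 genes, STMN2 (ENSDARG00000070537) and SYT1, at −0.60 to −0.34), 7 without the second (CHAT, INA (ENSDARG00000011862), SLC18A3, STMN2 (ENSDARG00000070537), SV2A, nefla and nefma, at −0.72 to −0.26) and 6 without the third (CHAT, INA (ENSDARG00000011862), SLC17A6 (ENSDARG00000041150), SLC18A3, SV2A and nefma, at −0.69 to −0.29). All 12 libraries in one model called 20 of the 30 (7.38% of all genes fell there and 9.01% rose), and the genes lost were CHAT, GAD2, INA (ENSDARG00000011862), both SLC17A6 genes, SLC18A3, STMN2 (ENSDARG00000070537), SV2A, nefla and nefmb.

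**Figure D2:**
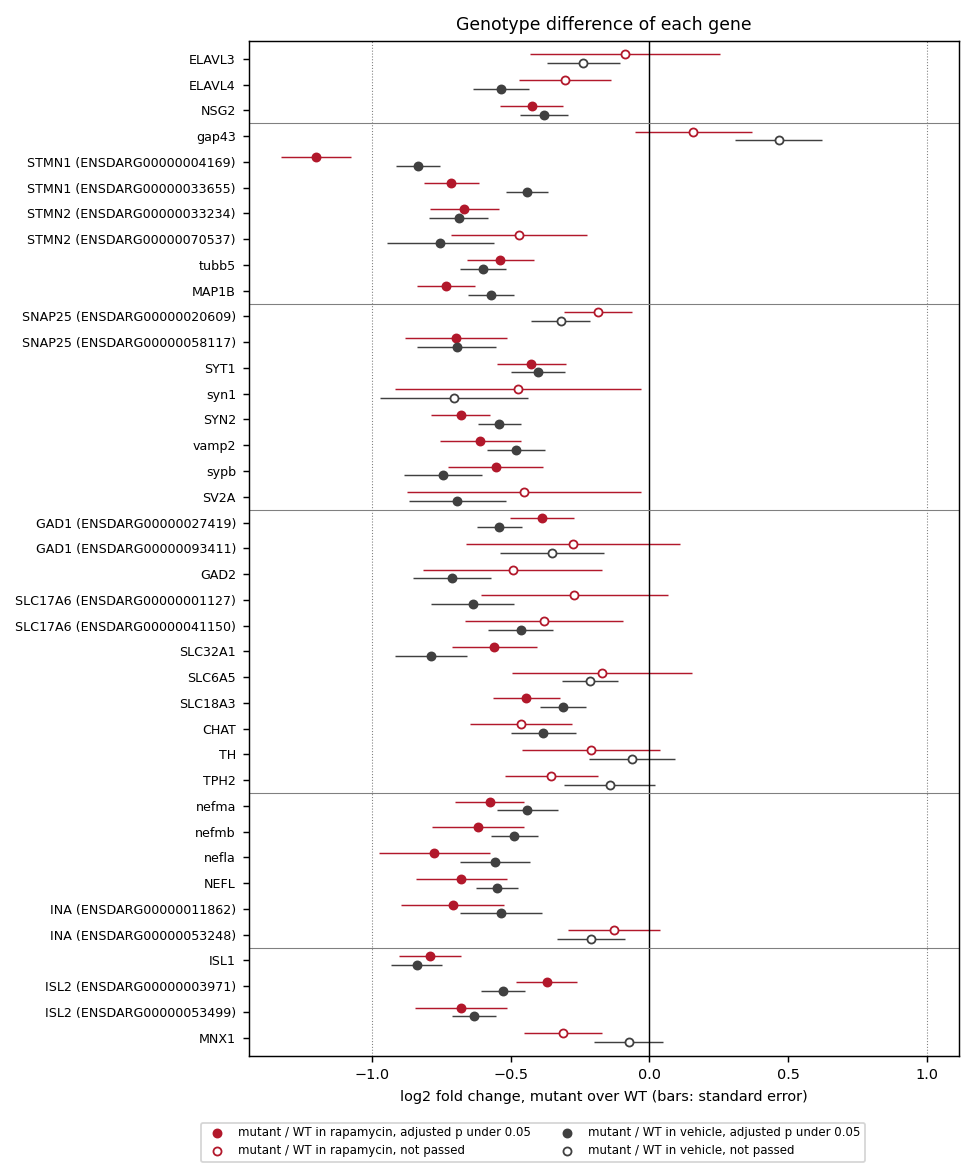
Log2 fold change of mutant over WT for 39 of the 40 genes in rapamycin (red) and in vehicle (dark grey), with bars of 1 standard error and filled points for an edgeR adjusted p under 0.05. In each treatment gap43 alone lies right of 0.

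The same genes were compared between mutant and WT larvae given rapamycin, in other libraries than those given vehicle. Same-numbered libraries correlated across treatments, so this comparison is not independent of the one in vehicle. Of the 40, 23 fell and 0 rose, beside 8.28% of all 22841 genes that fell and 9.11% that rose. The number at an unadjusted p under 0.05 was 25, beside 29.8% of all genes. DESeq2 also called 23 lower (10.4% lower and 10.9% higher over all genes). The median log2 fold change was −0.47, beside −0.03 over all genes tested, and 1 gene, STMN1 (ENSDARG00000004169), fell at least 2-fold, as did 3.8% of all genes. For 25 of the 40 the mutant libraries lay below all WT libraries, against 13.7% of all genes. In both treatments 39 of the 40 had a fold change below 0 (52.7% of all genes in rapamycin), and the 23 genes that fell in rapamycin had all fallen in vehicle. These calls come from different fits, the vehicle libraries alone and the model of all 12. In the 12-library model 19 of the 23 also passed in vehicle, and SLC18A3, INA (ENSDARG00000011862), nefla and nefmb did not. How many of all genes kept their sign or their call in both treatments was not counted. These joint counts therefore do not set the neuronal genes apart from the rest. For 23 of the 40 genes all 6 mutant libraries were below all 6 WT libraries, a pattern of 8.3% of all genes.

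STMN1 (ENSDARG00000004169) was at 94.1, 98.9 and 95.8 CPM in mutants given rapamycin, against 208, 187 and 269 CPM in WT given rapamycin (log2 fold change −1.20, SE 0.13, edgeR adjusted p = 4.27e-05). The other STMN1 gene was at 150.4, 136 and 131 CPM in mutants and 242, 209 and 232 CPM in WT (log2 fold change −0.71, SE 0.10, edgeR adjusted p = 0.000328). For both, the 3 WT libraries given rapamycin were the highest of the 12. MAP1B was at 20.5, 21.5 and 23.3 CPM in mutants and 32.4, 38.5 and 37.7 CPM in WT (log2 fold change −0.73, SE 0.10, edgeR adjusted p = 0.000437), and tubb5 was at 400.4, 447 and 477 CPM in mutants and 616, 576 and 729 CPM in WT (log2 fold change −0.54, SE 0.12, edgeR adjusted p = 0.00884). SYN2 was at 26.9, 27.1 and 27.05 CPM in mutants, where the 3 libraries were almost equal, and 40.97, 38.9 and 50.01 CPM in WT (log2 fold change −0.68, SE 0.11, edgeR adjusted p = 0.000813). ISL1 was at 36.1, 40.7 and 33.6 CPM in mutants and 64.9, 57.6 and 68.4 CPM in WT (log2 fold change −0.79, SE 0.11, edgeR adjusted p = 0.000432), close to its vehicle levels in both genotypes. These 6 genes passed in rapamycin whichever of the libraries given rapamycin was left out. So did STMN2 (ENSDARG00000033234), at 46.6, 39.5 and 41.4 CPM in mutants and 74.5, 58.5 and 69.4 CPM in WT. The same held for nefma, at 24.7, 26.4 and 27.8 CPM in mutants and 34.7, 40.3 and 42.8 CPM in WT. How many of all genes passed in this way was not counted. With the libraries given rapamycin fitted alone, tubb5 and nefma lost the call.

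Of the other genes of the synaptic vesicle, the calcium sensor SYT1 was at 19.6, 15.5 and 16.04 CPM in mutants given rapamycin and 22.2, 24.98 and 21.4 CPM in WT given rapamycin (log2 fold change −0.43, SE 0.12, edgeR adjusted p = 0.0321), and vamp2 was at 6.76, 8.42 and 6.998 CPM in mutants and 12.7, 11.9 and 9.22 CPM in WT (log2 fold change −0.61, SE 0.15, edgeR adjusted p = 0.0129). The groups of neither gene overlapped. SNAP25 (ENSDARG00000058117) was at 21.2, 18.9 and 16.8 CPM in mutants and 31.9, 23.1 and 37.3 CPM in WT (log2 fold change −0.70, SE 0.18, edgeR adjusted p = 0.0204), and sypb was at 23.5, 26.1 and 20.4 CPM in mutants and 33.4, 28.1 and 41.3 CPM in WT (log2 fold change −0.55, SE 0.17, edgeR adjusted p = 0.0419). In both cases the third WT library was the highest. SNAP25 (ENSDARG00000020609) overlapped, at 64.7, 56.3 and 54.3 CPM in mutants and 74.8, 61.1 and 63.3 CPM in WT, and did not pass (−0.19, edgeR adjusted p = 0.361). In all, 6 of the 9 vesicle genes fell in rapamycin, beside 8.28% of all genes.

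Among transmitter genes 3 of 11 fell in rapamycin with all libraries and 8 without the third WT library. The shares over all genes in these fits were 8.28% and 13.6%, so calls were gained generally. SLC32A1 was at 7.58, 5.86 and 5.57 CPM in mutants and 9.94, 8.97 and 9.09 CPM in WT (log2 fold change −0.56, SE 0.15, edgeR adjusted p = 0.0249), and GAD1 (ENSDARG00000027419) was at 23.1, 24.5 and 19.4 CPM in mutants and 32.3, 28.3 and 27.001 CPM in WT (log2 fold change −0.39, SE 0.11, edgeR adjusted p = 0.0345). SLC18A3 was at 18.5, 22.9 and 21.8 CPM in mutants and 26.1, 26.9 and 32.8 CPM in WT (log2 fold change −0.44, SE 0.12, edgeR adjusted p = 0.0236). These 3 were the genes that fell, each without overlap. CHAT was at 8.65, 8.44 and 7.65 CPM in mutants and 13.3, 12.99 and 7.87 CPM in WT, where the third library was within the mutant range (−0.46, edgeR adjusted p = 0.108). The SLC17A6 gene ENSDARG00000041150 was at 7.66, 8.67 and 8.17 CPM in mutants and 11.9, 14.99 and 5.03 CPM in WT, and ENSDARG00000001127 was at 5.01, 5.08 and 3.83 CPM in mutants and 6.01, 8.46 and 2.36 CPM in WT. The third WT library was the lowest of the 6 for both. TPH2 was at 2.74, 2.68 and 3.13 CPM in mutants and 3.33, 3.74 and 3.86 CPM in WT, without overlap but not past the threshold (−0.35, edgeR adjusted p = 0.183), and TH overlapped, at 3.41, 3.43 and 2.03 CPM in mutants and 4.43, 3.29 and 2.52 CPM in WT.

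Of the motor neuron factors, 3 of 4 fell in rapamycin (median −0.52), and 2 of 4 without the third WT library (median −0.34). Over all genes 8.28% and 13.6% fell in these fits. ISL2 (ENSDARG00000053499) was at 15.4, 17.6 and 14.2 CPM in mutants and 22.1, 20.1 and 33.3 CPM in WT (log2 fold change −0.68, SE 0.17, edgeR adjusted p = 0.0143), and ISL2 (ENSDARG00000003971) was at 26.6, 29.4 and 25.9 CPM in mutants and 32.8, 32.3 and 40.8 CPM in WT (log2 fold change −0.37, SE 0.11, edgeR adjusted p = 0.038). The third WT library was the highest of the 6 for both ISL2 genes. Without it the changes were −0.41 for the first of them (edgeR adjusted p = 0.0118) and −0.24 for the second, which did not pass (edgeR adjusted p = 0.0652). MNX1 was at 7.03, 6.53 and 6.08 CPM in mutants and 8.97, 7.04 and 8.35 CPM in WT, a change of −0.31 (SE 0.14, edgeR adjusted p = 0.163) that did not pass, although the second WT library was just above the highest mutant library. Of the remaining growth genes, gap43 was at 213, 172 and 209.6 CPM in mutants and 154, 138 and 241 CPM in WT, and the third WT library, the highest of the 6, stood opposite to the first and second. Its change was 0.16 (SE 0.21, edgeR adjusted p = 0.68), and 0.46 without that library (edgeR adjusted p = 0.0621). NSG2 was at 59.2, 54.3 and 50.1 CPM in mutants and 79.1, 62.6 and 77.9 CPM in WT (log2 fold change −0.42, SE 0.11, edgeR adjusted p = 0.023), and ELAVL4 was at 48.2, 55.5 and 44.3 CPM in mutants and 60.7, 76.1 and 46.02 CPM in WT (−0.30, edgeR adjusted p = 0.245). Only NSG2 of the 3 early neuronal genes fell with all libraries.

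**Figure D3:**
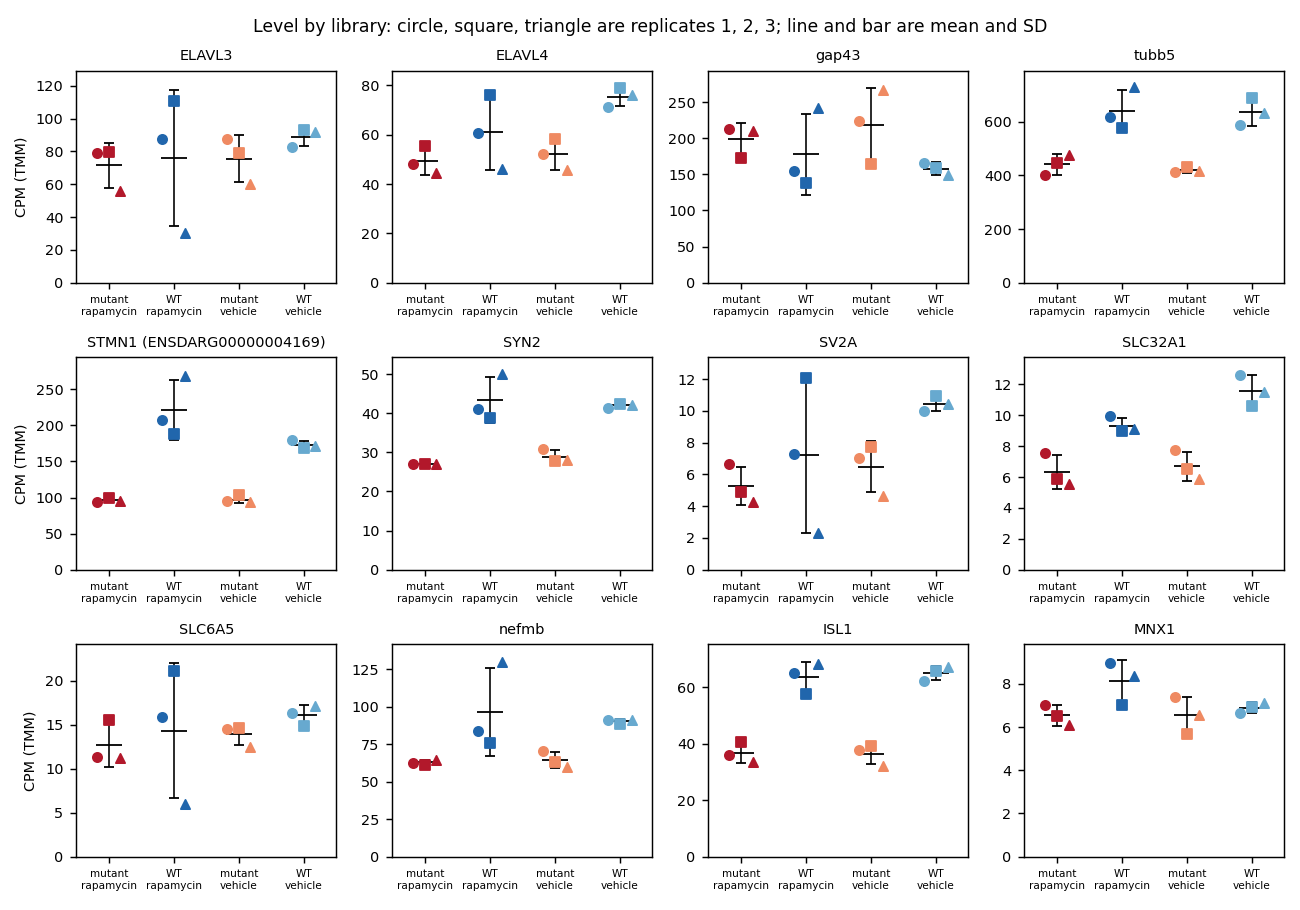
CPM of 12 of the genes in each library, with a circle, square and triangle for replicates 1, 2 and 3 and the mean and SD of each group of 3. For ELAVL3, SV2A and SLC6A5 the triangle of WT given rapamycin lies far below the other WT points, whereas for nefmb and STMN1 (ENSDARG00000004169) it lies above them.

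Several genes that did not pass in rapamycin stood apart in the third WT library. ELAVL3 was at 79.3, 79.7 and 55.9 CPM in mutants given rapamycin and 87.3, 111 and 30.3 CPM in WT given rapamycin, where the third library was the lowest of the 12. Its change was −0.09 (SE 0.34, edgeR adjusted p = 0.9), and −0.45 without that library (edgeR adjusted p = 0.0786). SV2A was at 6.63, 4.87 and 4.29 CPM in mutants and 7.28, 12.1 and 2.31 CPM in WT, and GAD2 was at 10.3, 11.5 and 7.66 CPM in mutants and 16.3, 19.1 and 6.05 CPM in WT. SLC6A5 was at 11.3, 15.6 and 11.2 CPM in mutants and 15.9, 21.04 and 5.97 CPM in WT. For each of these 4 genes the first and second WT libraries were above the mutant range and the third was below it. Without the third WT library, 28 of the 40 fell and 0 rose, beside 13.6% of 23075 genes that fell and 15.1% that rose, with a median of −0.49. The 7 calls gained were ELAVL4 (−0.45), SV2A (−0.86), GAD2 (−0.83), SLC17A6 (ENSDARG00000001127, −0.62), SLC17A6 (ENSDARG00000041150, −0.70), SLC6A5 (−0.52) and CHAT (−0.66). The 2 calls lost were sypb (−0.38) and ISL2 (ENSDARG00000003971, −0.24). Of the 28, 27 had passed in vehicle, a number not counted over all genes. The next 2 fits were made after seeing the data. Without the second and the third WT library together, 19 of the 40 fell, beside 7.3% of all genes that fell and 8.49% that rose. With the replicate block and without the third WT library 29 fell and gap43 rose, beside 16.5% of all genes that fell and 18.5% that rose.

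Of the neurofilament genes nefmb, NEFL, nefla and INA (ENSDARG00000011862) were highest of the 12 in the same WT library, whereas INA (ENSDARG00000053248) was lowest there. The medium subunit nefmb was at 62.6, 61.5 and 64.6 CPM in mutants given rapamycin and 83.7, 75.9 and 130.1 CPM in WT given rapamycin, a change of −0.62 with all libraries and −0.33 without the third WT library. NEFL was at 24.7, 25.2 and 25.7 CPM in mutants and 32.01, 34.5 and 54.5 CPM in WT, with −0.68 and −0.38 in the same 2 fits. For nefla the values were 4.78, 4.08 and 5.19 CPM in mutants and 6.24, 7.04 and 10.8 CPM in WT, with −0.77 and −0.49. All 3 passed in both fits, and the size of the drop was smaller without that library. INA (ENSDARG00000011862) was at 1.83, 2.12 and 2.15 CPM in mutants and 2.69, 3.15 and 4.13 CPM in WT, with −0.71 and −0.50. INA (ENSDARG00000053248) was at 31.02, 26.4 and 23.97 CPM in mutants and 35.9, 29.4 and 23.6 CPM in WT, with −0.13 and −0.26, and it passed in neither fit.

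The number of genes that fell in rapamycin moved with other libraries as well. It was 14 without the first mutant library given rapamycin, 13 without the second and 11 without the third. It was 15 without the first WT library and 22 without the second. Over the fits with 1 library given rapamycin left out, 5.03% to 13.6% of all genes fell. The calls lost without the first mutant library were GAD1 (ENSDARG00000027419), INA (ENSDARG00000011862), both ISL2 genes, NEFL, SLC18A3, nefla, nefmb, sypb and vamp2, at −0.79 to −0.35. Without the second 10 were lost, among them INA (ENSDARG00000011862), ISL2 (ENSDARG00000003971), NSG2, SLC32A1, SNAP25 (ENSDARG00000058117), SYT1, nefla, nefmb and sypb, at −0.74 to −0.36. Without the third 12 were lost, among them GAD1 (ENSDARG00000027419), both ISL2 genes, NSG2, SLC18A3, SLC32A1, SNAP25 (ENSDARG00000058117), SYT1, nefmb, sypb and vamp2, at −0.65 to −0.30. The first WT library took 8 calls with it, among them GAD1 (ENSDARG00000027419), NSG2, SLC32A1, SNAP25 (ENSDARG00000058117), SYT1, sypb and vamp2, at −0.67 to −0.31, and the second took SYT1 (−0.39). With the 6 rapamycin libraries fitted alone, 6 of the 40 fell, beside 3.11% of all genes that fell and 4.42% that rose. With the replicate block 24 fell, beside 10.4% of all genes (11.8% rose), the added gene being STMN2 (ENSDARG00000070537, −0.50, edgeR adjusted p = 0.0362).

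Rapamycin itself moved none of the 40 past the threshold in either genotype. In mutants 0 of the 40 passed by edgeR and by DESeq2, 0 were at an unadjusted p under 0.05 by edgeR, and 0% of the 22841 genes tested passed, with 0.657% at an unadjusted p under 0.05. The fold changes of rapamycin over vehicle in mutants lay between −0.30 (SV2A) and 0.10 (ISL2, ENSDARG00000003971), with a median standard error of 0.16. Only SYN2 had all rapamycin libraries below all vehicle libraries in mutants, a pattern of 2.08% of all genes. In WT larvae 0 of the 40 passed by edgeR and by DESeq2 and 3 were at an unadjusted p under 0.05 by edgeR, beside 0% of all genes by adjusted p and 6.1% by unadjusted p. DESeq2 called 11 genes of the whole table in WT (0.0263% higher and 0.0219% lower) and 0 in mutants. The fold changes in WT lay between −0.54 (SV2A, SE 0.42) and 0.35 (STMN1, ENSDARG00000004169), and the smallest adjusted p was 0.790. Both STMN1 genes were among the 3. STMN1 (ENSDARG00000004169) was at 208, 187 and 269 CPM in WT given rapamycin and 179.7, 169 and 171 CPM in WT given vehicle, a change of 0.35 (SE 0.12). Both STMN1 genes had no overlap between the groups on the higher side, a pattern of 5.45% of all genes, and 2 of the 40, SLC32A1 among them, on the lower side (5.24% of all genes).

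Whether the genotype difference itself differed between rapamycin and vehicle was tested as an interaction in the model of all 12 libraries. By edgeR and by DESeq2 0 of the 40 passed, 0 were at an unadjusted p under 0.05 by edgeR, and 0% of all genes passed by edgeR, with 1.59% at an unadjusted p under 0.05. DESeq2 called 2 genes of the whole table, 1 in each direction (0.00438% each). The interaction values lay between −0.37 (STMN1, ENSDARG00000004169, SE 0.18) and 0.36 (SLC17A6, ENSDARG00000001127, SE 0.47), with a median of 0.01 and a median standard error of 0.23. A missed threshold does not show that the 2 differences were equal. For the 40 genes the median per library relative to WT given vehicle was −0.54, −0.52 and −0.61 in mutants given rapamycin, −0.04, −0.01 and 0.07 in WT given rapamycin, and −0.47, −0.47 and −0.59 in mutants given vehicle. The mutant libraries of the 2 treatments thus covered overlapping ranges.

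For the 7 names shared by 2 genes, the share of the first gene in the summed CPM of both was compared between genotypes by a two-sided exact permutation test within each treatment, over 400 arrangements, for which the smallest p is 0.005. The share differed by this test for STMN1, SNAP25 and ISL2. The libraries were taken as paired by number, so the genotypes were also exchanged within the 6 same-numbered pairs, a test chosen after seeing the data, with 64 arrangements and a smallest p of 0.0313. STMN1, SNAP25, ISL2 and INA each had 1 sign in all 6 pairs and that smallest exact permutation p. Adjusted over the 7 names, this exact permutation p was 0.0547 and did not pass. It was already the smallest possible, so larger differences in the same names could not have passed either. Both tests rearranged the 2 treatments independently. Same-numbered libraries also correlated across treatments, so the p-values of both tests may be too small. STMN1 (ENSDARG00000004169) made up 38.5% to 42.3% of the STMN1 sum in mutants given rapamycin, against 46.2% to 53.7% in WT given rapamycin. Its share was 39.1% to 42.5% in mutants given vehicle, against 46.5% to 47.4% in WT given vehicle. The difference was −7.37 percentage points (exact permutation p = 0.005, 0.0233 after Benjamini-Hochberg adjustment over the 7 names), with no overlap in either treatment. SNAP25 (ENSDARG00000020609) took 74.8% to 76.4% in mutants given rapamycin and 62.9% to 72.6% in WT given rapamycin. It took 71.4% to 77.0% in mutants given vehicle and 68.0% to 72.0% in WT given vehicle, where the ranges overlapped. The difference was 5.98 points (exact permutation p = 0.01, adjusted 0.0233).

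ISL2 (ENSDARG00000003971) took 62.6% to 64.6% of the ISL2 sum in mutants given rapamycin and 55.1% to 61.6% in WT given rapamycin. In vehicle its share was 58.9% to 61.0% in mutants and 57.9% to 59.5% in WT, which overlapped, and the difference over both treatments was 3.19 points (exact permutation p = 0.01, adjusted 0.0233). Without the third WT library given rapamycin, the differences were −6.21 points for STMN1, 4.58 for SNAP25 and 2.26 for ISL2, each with an adjusted exact permutation p of 0.035. STMN2, GAD1, SLC17A6 and INA had raw exact permutation p values of 0.88, 0.57, 0.865 and 0.055 over the 400 arrangements. How reads shared by such copies were divided between them is not known, so the split within a name is less certain than its sum.

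**Figure D4:**
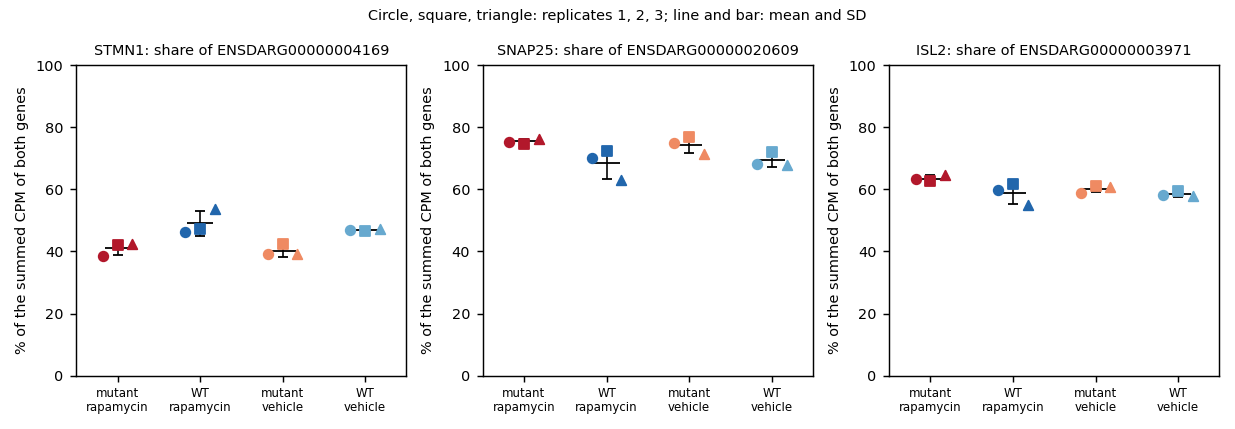
Share of 1 gene in the summed CPM of the 2 genes that carry the same name, for STMN1, SNAP25 and ISL2, in each library, with the mean and SD of each group of 3. The STMN1 share lies between 38.5% and 42.5% in the 6 mutant libraries and between 46.2% and 53.7% in the 6 WT libraries.

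Other genes of the same pathways, from 7 lists with no gene in common with the 40, were counted in the same vehicle fit. The lists were chosen with earlier results of these data known and use the same libraries, so they are not independent support. Synaptic vesicle, release and active zone genes fell in 27 of 47 and rose in 2, with a median of −0.54. Synaptic adhesion and postsynaptic genes fell in 25 of 49 and rose in 0, with a median of −0.56. Of the axon growth and neuronal cytoskeleton genes 32 of 54 fell and 3 rose (median −0.44), and of the RNA-binding and post-mitotic differentiation factors 20 of 43 fell and 0 rose (median −0.40). Channels for sodium, potassium and calcium fell in 11 of 31 and rose in 0 (median −0.39). These shares compare with 13.6% lower and 14.8% higher over all genes. Transmitter identity and neuropeptide genes were more mixed, with 10 of 35 lower and 5 higher (median −0.28), and so were motor neuron, cranial and interneuron factors, with 14 of 42 lower and 1 higher (median −0.30). Over all 7 lists 139 of 301 genes fell and 11 rose in the fit of the vehicle libraries alone (median −0.44). In the model of all 12 libraries 76 of 305 fell and 3 rose in vehicle, beside 7.38% of all genes that fell, and 67 of 305 fell and 7 rose in rapamycin (median −0.39), beside 8.28%. The rapamycin libraries alone gave 22 of 301 lower and 2 higher, beside 3.11% of all genes that fell. Without the third WT library 138 of 305 fell in rapamycin and 13 rose (median −0.52), beside 13.6%.

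By the rule for naming genes, the vesicle genes with the lowest values included syt5b, a synaptotagmin, at 12.3, 9.62 and 10.3 CPM in mutants and 30.8, 19.7 and 32.6 CPM in WT larvae given vehicle (−1.37, edgeR adjusted p = 0.000918). The axonal protein gene crmp1 was at 6.48, 8.77 and 6.12 CPM in mutants and 17.3, 16.3 and 17.9 CPM in WT (−1.27, edgeR adjusted p = 0.000302). Both genes fell with no overlap between the groups. The basic helix-loop-helix factor neurod1, which is also expressed in the retina, was at 63.02, 65.5 and 51.99 CPM in mutants and 135, 126 and 131 CPM in WT (−1.12, edgeR adjusted p = 8.65e-05). The interneuron and retinal factor vsx1 was at 32.7, 41.8 and 27.95 CPM in mutants and 125, 111 and 122 CPM in WT (−1.81, edgeR adjusted p = 4.39e-05). The genes syt5b, crmp1, neurod1 and vsx1 had lower fold changes than any of the 40 in vehicle. On the higher side, the cell adhesion gene chl1b was at 99.7, 84.3 and 73.7 CPM in mutants and 54.03, 53.5 and 53.1 CPM in WT (0.68, edgeR adjusted p = 0.00206). From the same axon list, map1ab was at 34.1, 34.6 and 44.3 CPM in mutants and 27.0, 27.0 and 27.1 CPM in WT (0.48, edgeR adjusted p = 0.0125). STMN4 (ENSDARG00000030106) was at 25.9, 19.4 and 22.4 CPM in mutants and 18.1, 15.3 and 16.4 CPM in WT (0.44, edgeR adjusted p = 0.0246).

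**Figure D5:**
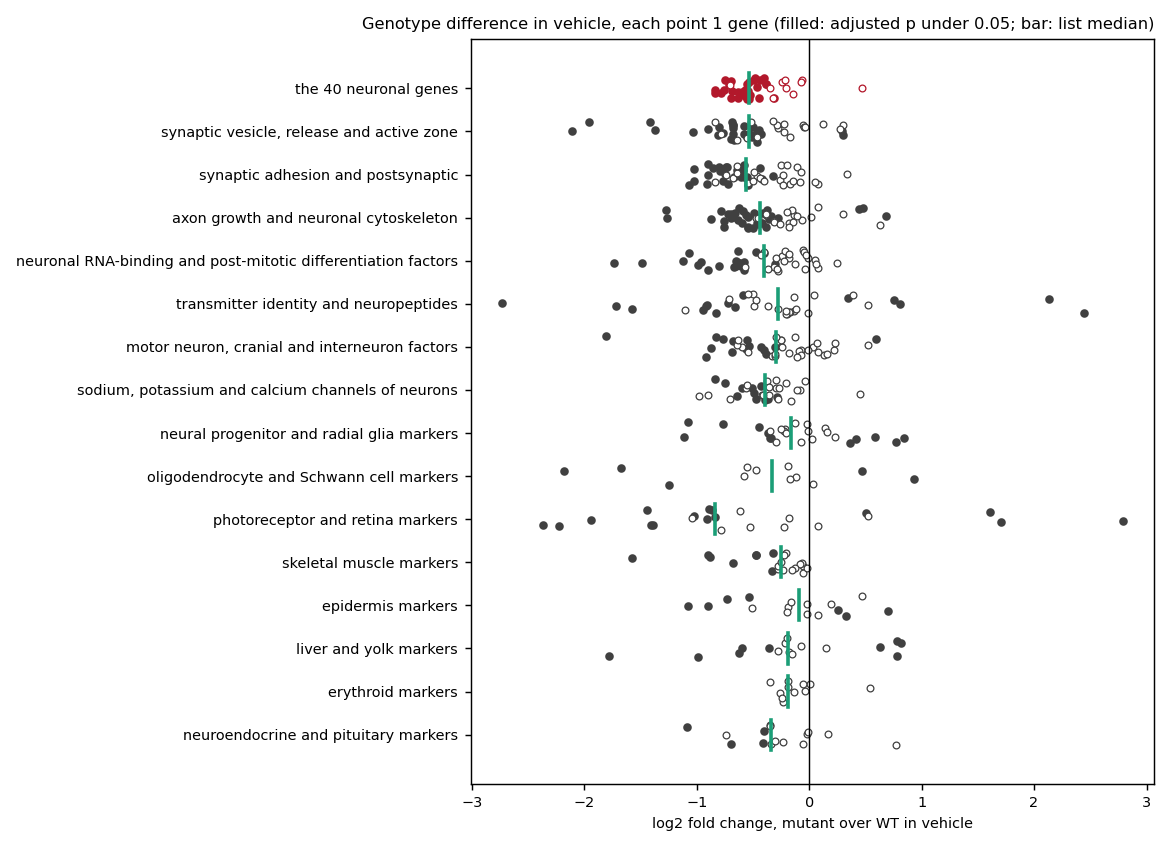
Log2 fold change of mutant over WT in vehicle for the 40 genes (red), for 7 lists of other neuronal genes and for 8 lists of marker genes of progenitors and other cells, 1 point a gene, with filled points for an edgeR adjusted p under 0.05 and a bar at each median. The medians lie between −0.84 for photoreceptor and retina markers and −0.09 for epidermis markers.

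Markers of neural progenitors and of other cells of the embryo were counted in the same way, since they could move with the neuronal genes. Over all genes 13.6% fell and 14.8% rose in this fit. Of the neural progenitor and radial glia markers 7 of 26 fell and 5 rose (median −0.16), and their summed level was 2532 to 2706 CPM in mutants and 2904 to 3167 CPM in WT larvae given vehicle. Photoreceptor and retina markers fell in 11 of 23 and rose in 4 (median −0.84), with sums of 177 to 189 CPM in mutants and 194 to 211 CPM in WT. Skeletal muscle markers fell in 8 of 21 and rose in 0 (median −0.25), or 13 with the replicate block, with sums of 74596 to 83635 CPM in mutants and 91391 to 100040 CPM in WT. The neuroendocrine list fell in 4 of 15 and rose in 0 (median −0.34), with sums of 141 to 173 CPM in mutants and 183 to 211 CPM in WT. These 4 lists were below WT in their sums without overlap. Taken singly, 21.7% of all genes showed that pattern, and it was not counted for sums of other genes. The gap in the photoreceptor and retina sum was narrowed by prdm1a, which rose against most of that list. It was at 77.6, 67.2 and 79.1 CPM in mutants and 23.8, 23.8 and 21.0 CPM in WT (1.71, edgeR adjusted p = 1.21e-05). The gap in the progenitor sum rested largely on fabp7a, at 288, 281 and 298 CPM in mutants and 654, 605 and 613 CPM in WT. The progenitor list as a whole was mixed, with 7 of 26 lower and 5 higher. The sum of the 40 neuronal genes was 1673 to 1772 CPM in mutants and 2317 to 2358 CPM in WT. The part of these other cells in the neuronal values was not tested.

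The remaining lists overlapped between the groups in their sums. Their counts without the block also stand beside 13.6% lower and 14.8% higher over all genes. Oligodendrocyte and Schwann cell markers fell in 3 of 12 and rose in 2 (median −0.33), with sums of 72.0 to 79.0 CPM in mutants and 70.5 to 81.8 CPM in WT. Epidermis markers fell in 4 of 16 and rose in 3 (median −0.09), with 26436 to 32259 CPM in mutants and 30229 to 35946 CPM in WT. For liver and yolk markers 5 of 16 fell and 4 rose (median −0.19), with 16097 to 19058 CPM in mutants and 18655 to 20276 CPM in WT. Erythroid markers had 0 of 11 past the threshold by edgeR, with 2 at an unadjusted p under 0.05 (median −0.19), and with the replicate block 2 were lower and 1 higher and 6 were at an unadjusted p under 0.05. Their sums were 3665 to 4846 CPM in mutants and 4286 to 5133 CPM in WT. No marker of any of these lists was at 0 in all libraries.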

How the data were processed

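Poly-A RNA of whole zebrafish embryos was sequenced by the authors from stranded libraries. Mapping by STAR to GRCz10 is stated in the methods, whereas Salmon appears in the submitters' processing notes, and their versions are not given in the sources used here. The deposited values are estimated counts per Ensembl gene, given as whole numbers and not scaled to a common library total. How they were made is otherwise not clear, and no source says how reads of near-identical copies were divided. Each of the 12 count columns was assigned to its sample by name. Gene names came from the study's table of differential expression for 1743 genes and otherwise from a table of Ensembl names, and 2966 genes had no name. Some of these names are human symbols.

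The tool was edgeR 4.0.16 under R 4.3.3. Low genes were removed by filterByExpr (10 counts, 3 libraries), libraries were scaled by TMM (factors 0.849 to 1.08), and the quasi-likelihood test was run on every gene left, its p-values adjusted by the method of Benjamini and Hochberg over all of them. All 40 neuronal genes passed the filter. The vehicle comparison of genotypes was fitted to its own 6 libraries, while 1 model of all 12 libraries served the rest. The threshold was an adjusted p under 0.05, and the number at 2-fold, the study's minimum, is given beside it. The members and lists were chosen with earlier results of these data known. Named are 39 of the 40 genes (1 is counted throughout but not reported here), apc and, per list in the vehicle comparison, genes among the 3 most raised and 3 most lowered of those that passed, averaged at least 100 counts and did not overlap between groups. Lists are described by counts and medians, with no test of a list. An exact permutation test of 3 against 3 libraries cannot go below p = 0.1.

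Each result was recomputed with DESeq2 1.42.0, with scaling by RLE or the upper quartile, with no filter, with 10 counts in every library, with a replicate block, with other sets of libraries in the fit, and with each library left out. The libraries left out were those of the groups compared. Chosen after seeing the data were leaving out WT rapamycin libraries 2 and 3 together, the block without library 3, and the exchange of genotypes within same-numbered pairs for the shares of genes with 1 name. The titles number the replicates 1 to 3 in each group, and 3 independent clutches were used. After subtraction of group means, libraries with the same number correlated over genes at a mean of 0.282 (lowest 0.139, 18 pairs), so the numbers were taken to pair the libraries. Those with different numbers were at −0.140 (highest −0.00266, 36 pairs). The subtraction itself makes these values negative when the same-numbered ones are positive, so they are no separate evidence of pairing. The p-values measure the spread between pools of embryos. The procedure was run on simulated data with the same spread for every gene, no pairing and no outlying library, so it was not tested under those features. No sequences or genome positions are given.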

Additional observations from a re-analysis of the deposited data

How the results depend on the processing

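The count of neuronal genes lower or higher in mutants given vehicle was 30, and 23 to 31 with 1 library left out. It was 33 with the replicate block and with DESeq2, where gap43, SNAP25 (ENSDARG00000020609) and syn1 were added, and 20 with all 12 libraries in one model. At 2-fold it was 0. The median was −0.54 to −0.48 with 1 library left out and −0.60 with upper-quartile scaling. In rapamycin the count was 23, and 11 to 28 with 1 library left out, 6 with the rapamycin libraries alone, 24 with the replicate block, 30 with the block and without the third WT library (gap43 among them, higher), and 1 at 2-fold. Its median was −0.53 to −0.41 with 1 library left out and −0.54 with upper-quartile scaling. RLE scaling and both other filters gave 30 or 31 genes in vehicle and 22 or 23 in rapamycin. The cause of these shifts was not tested. The rapamycin comparisons and the interaction stayed at 0 of the 40 under each alternative run, and of the calls of the 40 genes the replicate block changed only those named. In the vehicle lists the block gave 173 genes lower over the 7 neuronal lists against 139 without it, with 34 against 27 for vesicle genes and 32 against 25 for adhesion genes. Of the marker lists it gave 13 lower against 8 for muscle, 14 against 11 for photoreceptors, and 3 passing against 0 for erythroid cells. Over all genes, 18.2% fell with the block against 13.6% without it, so calls were gained generally and not only in these lists.

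Signs turned for genes that did not pass. In vehicle the values with 1 library left out ran from −0.15 to 0.043 for TH and from −0.17 to 0.018 for MNX1. In rapamycin ELAVL3 was 0.0020 with the replicate block and −0.45 to 0.26 with 1 library left out. The ranges with 1 library left out were −0.031 to 0.46 for gap43, −0.86 to 0.11 for SV2A, −0.65 to 0.19 for GAD1 (ENSDARG00000093411), −0.62 to 0.12 for SLC17A6 (ENSDARG00000001127), −0.52 to 0.19 for SLC6A5, −0.38 to 0.029 for TH and −0.26 to 0.036 for INA (ENSDARG00000053248). Low levels were found for TH, TPH2, syn1, GAD1 (ENSDARG00000093411) and INA (ENSDARG00000011862), all under 6 CPM in every library. Whether this limits their precision was not tested. Of these, only INA (ENSDARG00000011862) is counted among the genes that fell, in both treatments.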

Other observations

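Some genes outside the 40 rose in mutants given vehicle. Among neuropeptide genes, cart3 was at 16.03, 13.7 and 14.6 CPM in mutants and 2.79, 2.596 and 2.73 CPM in WT larvae (2.45, edgeR adjusted p = 8.01e-06). The thyrotropin-releasing hormone gene trh was at 2.78, 2.34 and 6.19 CPM in mutants and 0.756, 1.04 and 0.776 CPM in WT (2.13, edgeR adjusted p = 0.00314), with the third mutant library the highest. The oxytocin gene oxt fell, at 0.955, 0.593 and 0.628 CPM in mutants and 2.68, 2.32 and 2.13 CPM in WT (−1.71, edgeR adjusted p = 0.000842). Radial glia genes also split. The lipid-binding protein gene fabp7a was at 288, 281 and 298 CPM in mutants and 654, 605 and 613 CPM in WT (−1.11, edgeR adjusted p = 2.69e-05), while VIM, an intermediate filament of progenitors, was at 189.9, 172 and 194 CPM in mutants and 113, 131 and 127 CPM in WT (0.58, edgeR adjusted p = 0.00173).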
